A study of Homo sapiens with 4 samples.

Results

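Cytosolic ribosomal protein genes encode the protein part of the ribosome outside mitochondria. They were followed in DAOY, an established human medulloblastoma cell line, after the transcription factor ZFX had been lowered with short hairpin RNAs. The 64 genes, of 18417 with a usable probe set, were taken by symbol. They are every gene named RPL or RPS with a number, with or without A, L, X or L1 at its end, together with RPLP0 to RPLP2 and RPSA where present, without pseudogenes and without the RPS6K kinases. The large subunit had 42 genes and the small subunit 22, and all 64 passed the intensity filter. These 64 hold 57 of 77 canonical genes listed from general knowledge and 7 paralogs with an L or L1 ending. Of the 20 canonical genes left out, among them RPLP0, RPSA, RPL39 and RPS27A, 11 appear only on probe sets shared by several gene symbols. The others matched no probe set by symbol.

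In all, 3 arrays came from cells of the ZFX KD genotype, each with its own hairpin (H2, H3, H4), and 1 array from cells given a scrambled hairpin without a target (genotype Ctrl). Every sample went through lentiviral transduction for 16 to 24 hours, 48 hours of recovery and about 48 hours in 2 ug/mL puromycin, which removes cells without the virus. The control cells thus carry the virus and the selection too. Nothing in the labels says whether transductions were repeated, so any p-value measures only the spread between these arrays. Fewer cells of a kind and less RNA per cell cannot be told apart in such samples.

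Each ribosomal protein is needed in about equal number, and the mRNAs of nearly all of them begin with a C followed by an unbroken run of C and T bases, the terminal oligopyrimidine (TOP) motif. Through this motif the growth kinase mTOR and the RNA-binding protein LARP1 control their translation as a group. Some of the proteins also act outside the ribosome. RPL5 and RPL11, for example, bind MDM2, the main inhibitor of p53, when ribosome assembly fails.

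The start sites of 12 members described below are shown to compare starts with the feature that most members share and starts without it. Where a gene had several annotated starts (3 for RPL13, 2 for RPL26L1), a start with the feature was preferred if there was any. Each window holds 15 bases before the annotated start and 15 bases from it onward, read on the gene's strand (RefSeq, GRCh38.p14). Capitals mark the unbroken run of C and T that holds the start base.
RPL41 (chr12:56116618-56116647, plus strand): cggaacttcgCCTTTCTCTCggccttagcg
RPL26 (chr17:8383179-8383208, minus strand): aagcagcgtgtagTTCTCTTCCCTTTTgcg
RPL22 (chr1:6199581-6199610, minus strand): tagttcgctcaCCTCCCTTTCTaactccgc
RPL10A (chr6:35468386-35468415, plus strand): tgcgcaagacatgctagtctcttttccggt
RPS13 (chr11:17077653-17077682, minus strand): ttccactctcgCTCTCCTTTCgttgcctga
RPS7 (chr2:3575245-3575274, plus strand): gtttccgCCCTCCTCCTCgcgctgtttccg
RPS6 (chr9:19380222-19380251, minus strand): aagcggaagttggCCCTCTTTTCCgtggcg
RPL37A (chr2:216498829-216498858, plus strand): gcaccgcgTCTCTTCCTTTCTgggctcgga
RPL13 (chr16:89560667-89560696, plus strand): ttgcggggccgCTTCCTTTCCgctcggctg
RPL22L1 (chr3:170870181-170870210, minus strand): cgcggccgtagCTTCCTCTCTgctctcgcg
RPL26L1 (chr5:172958714-172958743, plus strand): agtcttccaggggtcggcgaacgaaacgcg
RPS27L (chr15:63157463-63157492, minus strand): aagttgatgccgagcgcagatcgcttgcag

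A promoter window was at hand for 53 of the 64 members. Of these, 37 (69.8%) had at least 1 annotated start with a C followed by at least 4 C or T bases, against 6.95% of the 10917 tested genes that had a window. The start shown for RPL10A lies just before such a run, and that of RPS7 has a G within it, so neither counts. Of the 5 paralogs with a window, only RPL22L1 had the run, and RPL26L1 and RPS27L had none at the start. The run was present in 16 of 21 members that were higher than scrambled with all 3 hairpins, in 2 of 2 that were lower with all 3, and in 19 of 30 that lay on both sides. Within 250 bases before to 50 after the start, on either strand, AGGCCT, the core bound by ZFX in published motifs, was found in 6 of 53 members (11.3%) and in 14.3% of all genes. The 6 were RPL10, RPL19, RPL22, RPL27A, RPL37A and RPS19. The ETS-type motif CCGGAAG was in 37.7% of members and 20.3% of all genes, and ATGGCG, the core of YY1 motifs, was in 39.6% and 20.7%. A match is only a string in this window.

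ZFX itself, the targeted gene, read 744.9 with H2, 749.6 with H3 and 995.6 with H4, against 1430 with the scrambled hairpin. The mean difference was -0.80 ± 0.24 on the log2 scale (SD over the 3 hairpins, n = 3; adjusted p = 0.9998 in limma). Of the markers checked for other cell types, 0 of 4 haematopoietic and 0 of 4 endothelial genes on single-symbol probe sets passed the intensity filter. Of 5 epithelial markers the keratins KRT8, KRT18 and KRT19 passed and were lower with all 3 hairpins, and their summed intensity was 9109 (H2), 9421 (H3) and 8612 (H4), against 11187 on the scrambled array. Their part in the ribosomal protein values was not tested. Of 8 neural and medulloblastoma markers listed, 7 had a single-symbol probe set and 5 passed the filter (ATOH1, GLI2, SOX2, SOX9 and VIM).

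Ribosomal protein mRNAs were slightly more abundant than on the scrambled array for most genes with H2, and by smaller amounts with H3 and H4. With H2 the median log2 difference was 0.15 for the 42 large and 0.080 for the 22 small subunit genes, against -0.030 for all 13813 genes tested. With H3 it was 0.039 and 0.012, against -0.021. With H4 it was 0.046 and 0.021, against -0.046. Higher than scrambled were 51 of 64 members with H2, 40 with H3 and 42 with H4, while 44.0%, 44.5% and 38.9% of all genes were higher and 56.0%, 55.5% and 61.0% lower. In the mean over hairpins the large subunit stood at 0.064 (104.5% of scrambled) and the small subunit at 0.016 (101.1%), against -0.035 (97.6%) for all genes. The hairpin medians spread by an SD of 0.062 for the large and 0.037 for the small subunit (n = 3), about as much as or more than the means themselves. No single ribosomal protein gene passed the test: 0 of 64 had an adjusted p up to 0.05 in limma, as did 0% of all genes tested, and the smallest adjusted p was 0.9998. At an unadjusted limma p under 0.05 stood RPL41 and RPS13, both higher, among 446 genes in all (3.23%). Over all genes 0.746% were higher and 2.48% lower at that p. Pooled over both directions the members' share is near the background. The single scrambled array is a term in every difference, so its own error moves all 3 hairpins the same way.

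**Figure D1:**
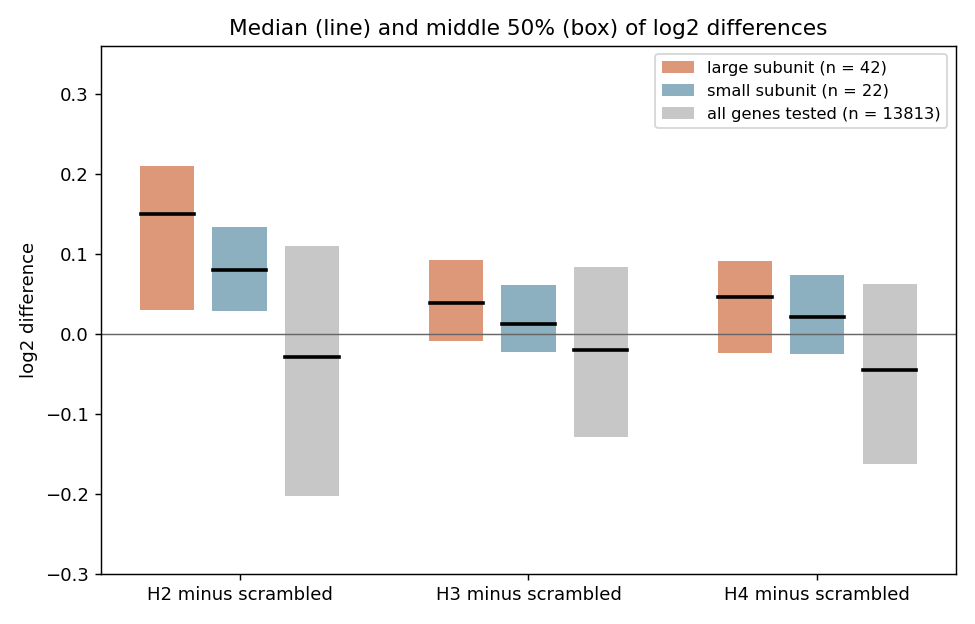
Log2 difference of each hairpin array minus the scrambled array for the 42 large subunit genes, the 22 small subunit genes and all 13813 genes tested. Boxes span the middle 50% of genes and lines mark medians; the medians of both subunits lie above 0 with each hairpin and are highest with H2 (0.15 and 0.080), while those of all genes lie below 0.

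With all 3 hairpins 18 large subunit genes were higher than on the scrambled array and 4 were lower, and the other 20 lay on both sides. In the small subunit 7 were higher, 0 were lower and 15 lay on both sides. Of all genes tested, 16.9% were higher and 30.6% were lower with all 3 hairpins. These counts depend on the scaling and on single arrays. Centring each array on its median gave 29 higher and 1 lower in the large and 14 and 0 in the small subunit, with 23.6% of all genes higher and 23.3% lower. Quantile normalization gave 6 higher and 1 lower in the small subunit, with 22.02% and 25.05% of all genes, and cyclic loess gave 6 and 2, with 20.5% and 26.5%. Without H2 the large subunit had 21 higher and 8 lower and the small subunit 9 and 4, with 23.5% of all genes higher and 40.1% lower. Without H3 the small subunit had 11 higher and 0 lower (23.5% and 40.6% of all genes), and without H4 it had 10 and 2 (27.9% and 39.4%). The medians moved as well: without H4 they were 0.096 in the large and 0.035 in the small subunit, without H3 0.029 in the small subunit, and with centring 0.096 and 0.048. With quantile normalization the small subunit median was 0.0078, which is 0.016 above that of all genes, where it was 0.051 above in the values as deposited.

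The differences were small. With H2, 7 large and 2 small subunit genes were at least 1.2-fold above the scrambled array, where 8.54% of all genes were. None of the 64 was at least 1.2-fold below it with H2, where 19.8% of all genes were. With H3 the counts above were 2 and 0 (5.89% of all genes) and those below 0 and 0 (9.14%). With H4 they were 1 and 0 above (4.63%) and 0 and 1 below (13.3%). The 1 gene below with H4 was RPS24. At 1.5-fold no member passed in either direction with any hairpin. Of all genes, 0.992% passed it above and 5.61% below with H2, 0.528% and 1.14% with H3, and 0.608% and 2.17% with H4. At 1.1-fold, 22 large and 5 small subunit genes passed above and 0 and 2 below with H2, where 20.6% of all genes were above and 32.6% below. With H3 the counts were 7 and 1 above (16.3%) and 2 and 2 below (23.5%), and with H4 they were 5 and 1 above (13.7%) and 0 and 1 below (29.5%). At least 1.1-fold above with all 3 hairpins were RPL41, RPL10A and RPL7A, which are 3 of 64 members, against 3.38% of all genes, a share near the background. None of the 64 was 1.1-fold below with all 3, where 9.28% of all genes were. RPL7A was named here after its values were seen.

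**Figure D2:**
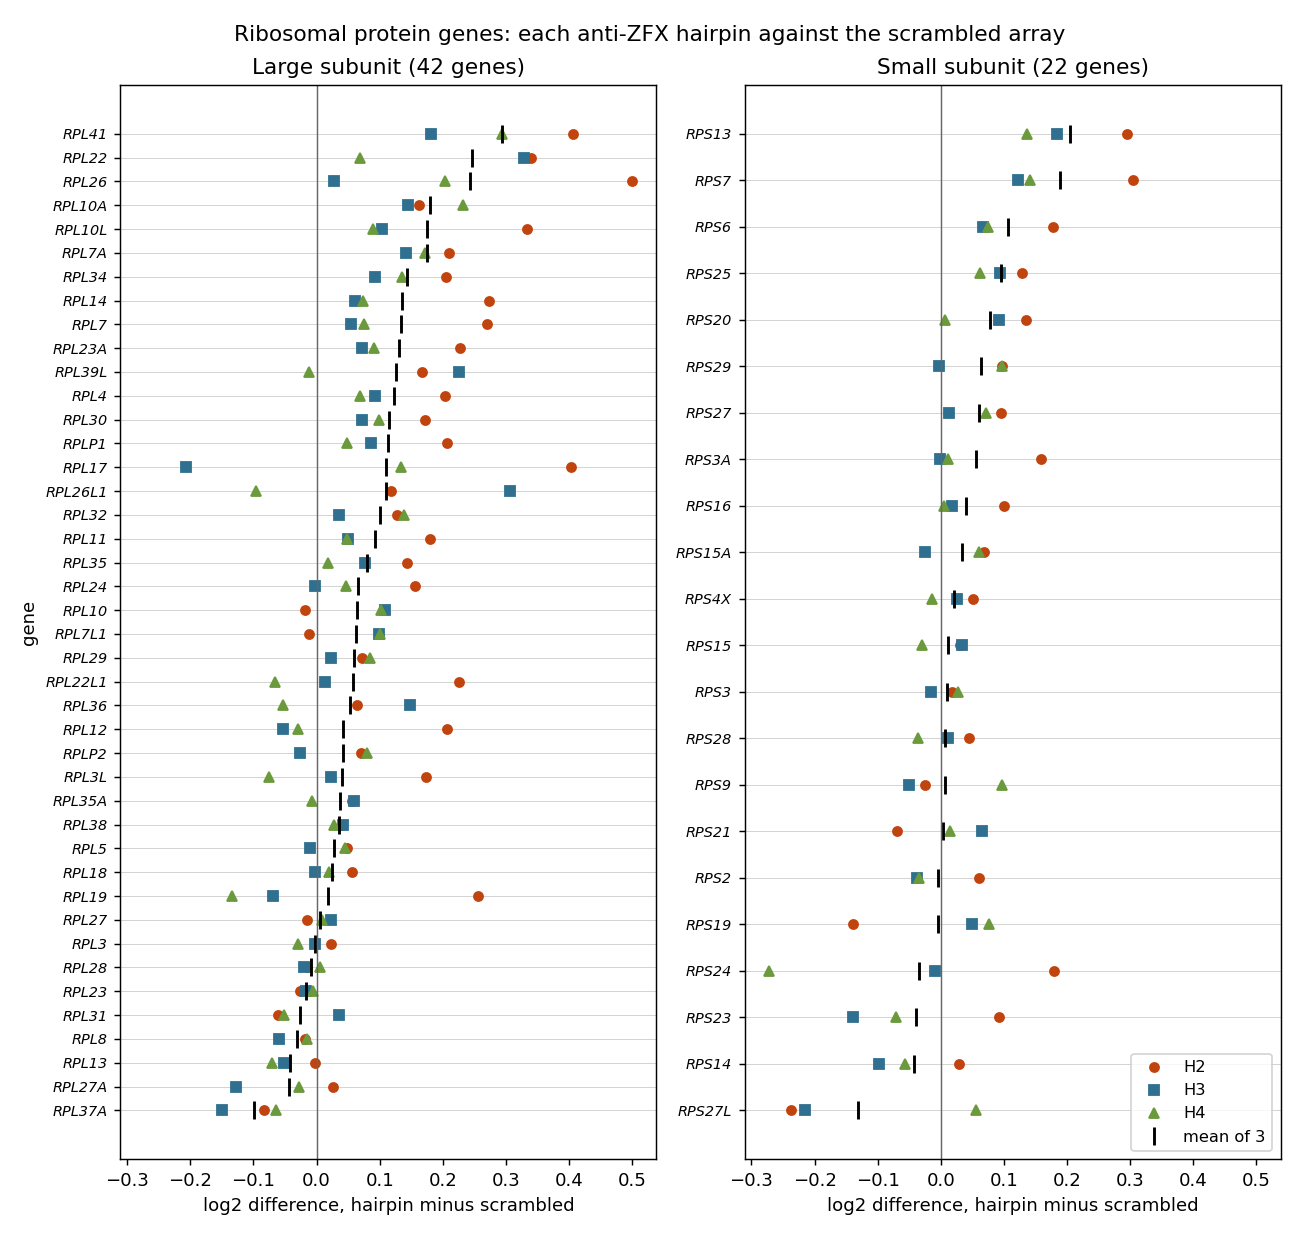
Log2 difference of each hairpin array minus the scrambled array (horizontal axis) for every large (left) and small (right) subunit gene, ordered by the mean of the 3 hairpins (black ticks). Most H2 points lie to the right of those of H3 and H4, and mean differences run from -0.099 (RPL37A) to 0.29 (RPL41) in the large and from -0.13 (RPS27L) to 0.20 (RPS13) in the small subunit.

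Among the 4 arrays H2 held the highest value for 24 of 42 large and 16 of 22 small subunit genes, against 28.9% of all genes tested. The scrambled array held the highest value for 4 large and 0 small subunit genes (30.6% of all genes) and the lowest for 18 and 7 (16.9%). The lowest value fell on H2 for 8 members (32.5% of all genes), on H3 for 18 (20.5%) and on H4 for 13 (30.1%). A comparison that leaves out the scrambled array also put H2 above the other hairpins. The median difference of H2 minus H3 was 0.067 for the large and 0.082 for the small subunit, against -0.012 for all genes. H2 minus H4 gave 0.071 and 0.074, against 0.014. H3 minus H4 gave -0.013 and -0.011, against 0.022. With 1 array per hairpin none of these could be tested.

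**Figure D3:**
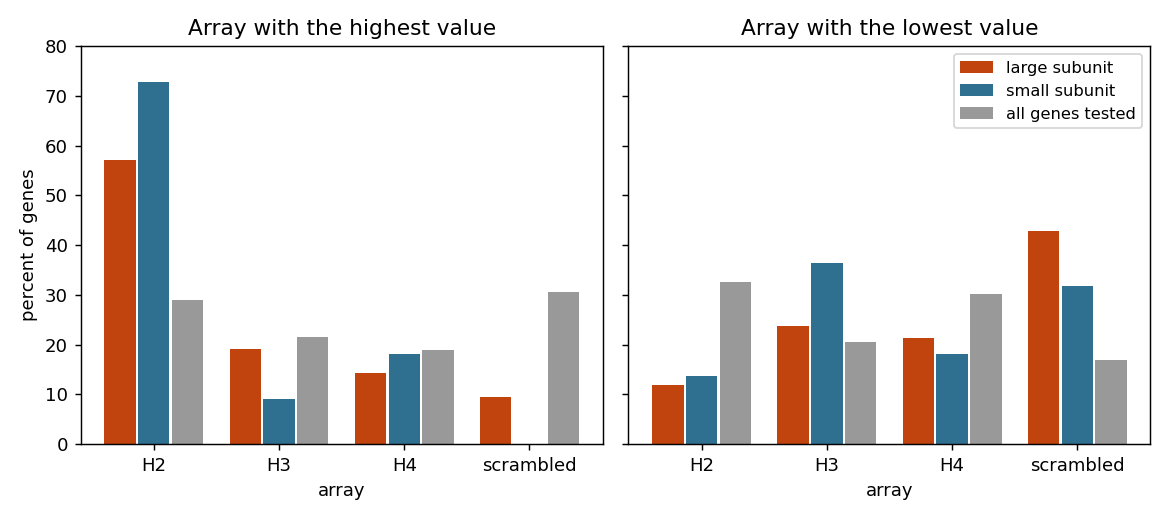
Percent of genes whose highest (left) and lowest (right) value fell on each array, for large subunit genes, small subunit genes and all genes tested. H2 was highest for 57.1% of large and 72.7% of small subunit genes, against 28.9% of all genes, and the scrambled array was lowest for 42.9% and 31.8%, against 16.9%.

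In the large subunit RPL41, a very short and strongly basic protein, had the highest mean difference. It read 14474 with H2, 12388 with H3 and 13384 with H4, against 10923 on the scrambled array, a mean log2 difference of 0.29 ± 0.11 (SD, n = 3). All 3 hairpin arrays lay above the scrambled one. This value rests on the choice of probe set. The probe set used (7965467) and another (7982129) hold the same 4 values and are 1 measurement, while the remaining RPL41 probe set (7956159) read 840.4, 817.9 and 784.9 with H2, H3 and H4, against 772.4 on the scrambled array. There the mean difference was 0.076 ± 0.050.

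RPL26, which joins the ribosome near the exit tunnel and also binds p53 mRNA, read 2272 with H2, 1638 with H3 and 1851 with H4, against 1607 on the scrambled array. H2 stood apart, H3 was next to the scrambled array, and the mean of 0.24 ± 0.24 was 0.12 without H2. RPL22, whose loss is known from cancers and from T-cell development in mice, read 145.0, 143.9 and 120.3 with H2, H3 and H4, against 114.6 on the scrambled array (0.25 ± 0.15). H4 lay close to the scrambled array, and the probe set was dim, with a mean log2 intensity of 7.03 against a filter at 6.78. RPL10A, which takes part in the stalk that releases deacylated tRNA, read 4327, 4275 and 4541, against 3865. Its mean difference of 0.18 ± 0.046 had a small spread, with H4 highest. RPL7A, also placed above on all 3, read 6336, 6044 and 6166, against 5476 (0.17 ± 0.034). RPL10L, an intronless copy of RPL10 known from testis, read 324.0, 276.2 and 273.5, against 257.1. Its mean of 0.18 ± 0.14 was 0.097 without H2.

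Below the scrambled array with all 3 hairpins were RPL37A, RPL13, RPL8 and RPL23. RPL37A, a zinc-binding protein of the large subunit, read 2208 with H2, 2109 with H3 and 2238 with H4, against 2339 on the scrambled array. Its mean difference was -0.099 ± 0.045, with H3 lowest. RPL13, RPL8 and RPL23 differed by -0.041 ± 0.035, -0.031 ± 0.024 and -0.016 ± 0.011 in the mean, and RPL8 and RPL23 turned positive when arrays were centred on their medians, RPL23 also with quantile normalization and cyclic loess. RPL13 was only just below with H2 (-0.0020). Its other probe sets were not below with all 3 hairpins, with 0.0011 for H2 (8180283) and 0.030 for H4 (7997933). RPL38, needed in mice for the translation of Hox mRNAs, had nearly the same value on each hairpin array (12727, 12739 and 12618, against 12381), a mean difference of 0.036 ± 0.0076. Scaling moved it to 0.068 with centring, 0.0032 with quantile normalization and 0.013 with cyclic loess. RPL17 had the widest range between hairpins. It read 1247 with H2, 817.4 with H3 and 1035 with H4, against 943.2 on the scrambled array, so that the scrambled value lay between those of H3 and H4.

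Of the proteins named above as binders of MDM2, RPL5 read 18433, 17689 and 18384 with H2, H3 and H4, against 17819 on the scrambled array (0.028 ± 0.033). This value rests on the choice of probe set. Of its other probe sets, 7986765 was higher with all 3 hairpins (0.12 ± 0.040) and 7903010 was lower with all 3 (-0.078 ± 0.014). RPL11 read 8548, 7809 and 7801, against 7547 (0.092 ± 0.076), with H2 highest and all 3 above. MDM2, the ubiquitin ligase that both proteins bind, read 2296, 2041 and 2660, against 1516, or 152.9% of scrambled in the mean (unadjusted p = 0.018 and adjusted p = 0.9998 in limma). The acidic stalk proteins RPLP1 and RPLP2, which recruit elongation factors, differed by 0.11 ± 0.083 and 0.042 ± 0.058. RPL3, at the peptidyl transferase centre, differed by -0.0024 ± 0.026, and RPL10, a late-joining protein encoded on chromosome X, by 0.064 ± 0.071. RPL7 differed by 0.13 ± 0.12. Without H2 the means of RPL7, RPLP1 and RPL11 were 0.065, 0.067 and 0.048.

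In the small subunit RPS13 had the highest mean difference. It read 18636 with H2, 17259 with H3 and 16710 with H4, against 15197 on the scrambled array (0.20 ± 0.081), with all 3 hairpin arrays above. RPS7, which also binds MDM2, read 3882, 3422 and 3470, against 3145 (0.19 ± 0.10). Its other probe set (8005877) read 1505, 1450 and 1393, against 1438, with a mean of 0.011 ± 0.056 and H4 below the scrambled array. RPS6, the substrate of S6 kinases downstream of mTOR, read 7508, 6948 and 6987, against 6637 (0.11 ± 0.062), with all 3 above and a mean of 0.070 without H2. RPS25, RPS20, RPS27 and RPS16 were the other members above with all 3 hairpins, with means of 0.095 ± 0.034, 0.078 ± 0.065, 0.060 ± 0.042 and 0.041 ± 0.052. The other RPS25 probe set (7939068) gave 0.21 ± 0.11. Without H2 the means of RPS20 and RPS16 were 0.049 and 0.011, and with quantile normalization that of RPS27 was 0.023.

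No small subunit gene lay below the scrambled array with all 3 hairpins. RPS24, which is mutated in some cases of Diamond-Blackfan anaemia, had the widest range. It read 1893 with H2, 1662 with H3 and 1385 with H4, against 1672 on the scrambled array, with H2 above, H4 below and H3 close to it. RPS19, the gene most often mutated in that anaemia, read 7271, 8283 and 8440, against 8004, so H2 was the lowest array. RPS14, linked to the anaemia of deletions on the long arm of chromosome 5, differed by -0.042 ± 0.065. RPS3, which lines the mRNA entry channel, differed by 0.0095 ± 0.022, and RPS4X, encoded on chromosome X, by 0.021 ± 0.032.

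Of the 7 paralogs, all but RPS27L had a positive mean difference. Their median was 0.063, against 0.055 for all 64 members. Single hairpins differed in sign: only RPL10L was higher than scrambled on all 3, and the other 6 lay on both sides. H3 put 6 of the 7 above the scrambled array, H2 put 5 and H4 put 3. RPS27L, a p53-induced relative of RPS27, read 445.9 with H2, 452.6 with H3 and 546.2 with H4, against 525.4 on the scrambled array (-0.13 ± 0.16). H2 and H3 were below and H4 was above, and RPS27 itself differed by 0.060 ± 0.042. RPL22L1, which RPL22 is known to repress in mice, read 155.5, 134.2 and 127.0, against 132.9. H2 lay furthest above, and the mean was 0.058 ± 0.15. The RPL22L1 probe set was dim, with a mean log2 intensity of 7.10 against a filter at 6.78, as was that of RPL3L (7.19). RPL26L1 and RPL39L had H3 as the highest and H4 as the lowest array, with means of 0.11 ± 0.20 and 0.13 ± 0.12. Without H3 these were 0.011 and 0.078, and without H4 0.21 and 0.20. The RPL26L1 pattern rests on the choice of probe set. Its other probe set (8110018), dim at a mean log2 intensity of 7.51, had H2 highest and H4 lowest, with a mean of 0.073 ± 0.10. RPL7L1, now known as a factor of ribosome assembly, had H2 as the lowest array (0.063 ± 0.065). RPL3L, the muscle relative of RPL3, differed by 0.040 ± 0.13, and without H2 its mean turned negative, as did that of RPL22L1. RPL36AL, which the naming rule leaves out, read 2605, 2589 and 2273, against 2068 on the scrambled array (0.26 ± 0.11).

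Ribosomal protein genes have many processed pseudogenes, so probes can read related transcripts, and 23 of the 64 genes had more than 1 single-symbol probe set. The brightest of them was used. Mean differences of probe sets of the same gene differed by a median range of 0.059, and by more than 0.1 for 9 genes. In 6 genes (RPL12, RPL31, RPL5, RPS15, RPS2 and RPS28) probe sets lay on different sides of zero. The largest range, 0.22, was that of RPL27A, from -0.26 to -0.043. RPL34 gave 0.14 on the probe set used and 0.020 on the other, while RPS25 gave 0.095 and 0.21. Over all 99 probe sets the median was 0.056. Taking the dimmest probe set of each gene gave a median of 0.056 in the large and 0.024 in the small subunit. A further 14 tested genes with ribosomal protein pseudogene symbols had a median of 0.11, with 8 higher and 1 lower with all 3 hairpins (16.9% and 30.6% of all genes).

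**Figure D4:**
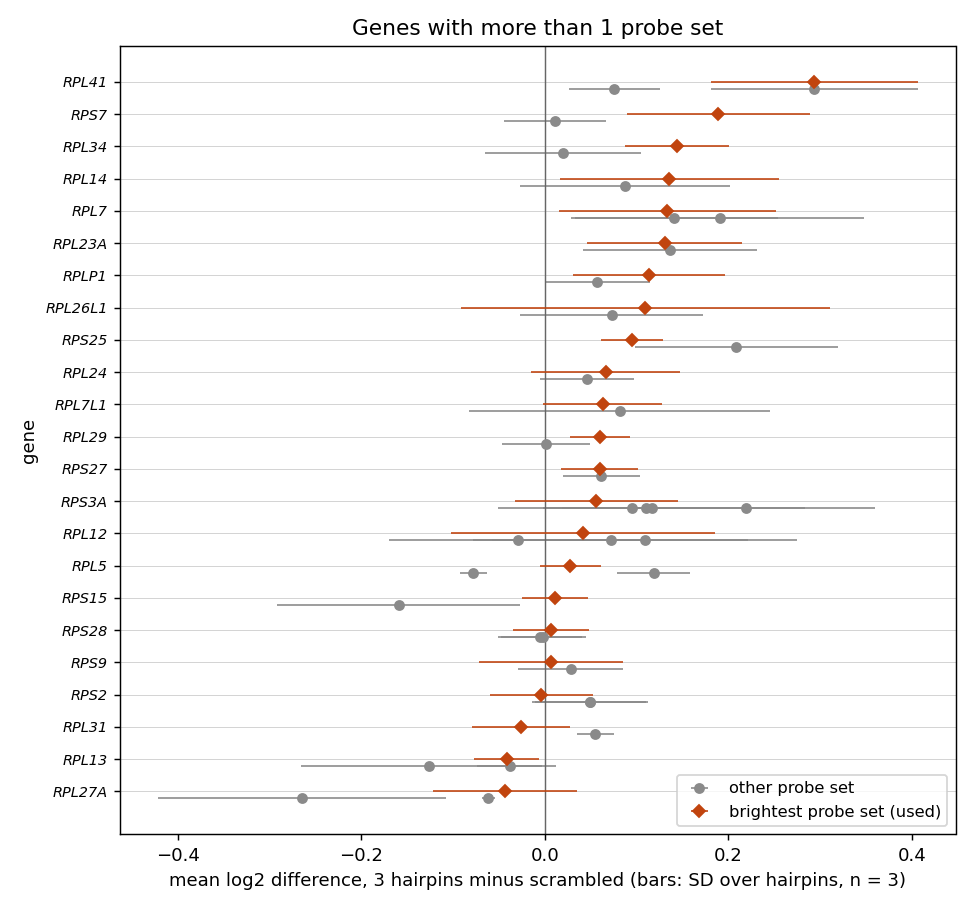
Mean log2 difference of the 3 hairpin arrays minus the scrambled array, with the SD over hairpins (n = 3), for each probe set of the 23 genes that had more than 1. Diamonds mark the brightest probe set, which was used, and circles the others. RPL41, RPS7 and RPL34 gave 0.29, 0.19 and 0.14 on the diamonds and 0.076, 0.011 and 0.020 on their dimmest probe sets. RPS25 and RPL7 went the other way, with 0.095 and 0.13 on the diamonds and 0.21 and 0.19 on their dimmest. The diamond held the highest mean difference in 11 of the 23 genes.

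Many of the genes were bright. Of the 64 genes, 43 had a mean log2 intensity of 12 or more. These had a median difference of 0.056, with 20 higher and 1 lower with all 3 hairpins, against -0.016 with 174 and 222 of the 869 other genes in that range (20.0% higher and 25.5% lower). The 11 members between 10 and 12 had a median of 0.0058, with 2 higher and 3 lower, against -0.044 with 16.8% higher and 31.7% lower in other genes of that range. The 10 dimmer members had 0.082, with 3 higher and 0 lower, against -0.034 with 16.5% and 30.8%. Bright members also varied less between hairpins, with a median SD of 0.057 against 0.090 in other bright genes.

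Other parts of the translation machinery were read from lists written from general knowledge. None of their genes passed the test in limma, and only MDM2 had an unadjusted p under 0.05. For comparison, 16.9% of all genes tested were higher and 30.6% lower with all 3 hairpins, and H2 was the highest array for 28.9%. Translation factors and other proteins with TOP mRNAs, 17 of 20 listed genes tested, had a median of 0.011, with 5 higher and 3 lower with all 3 hairpins. By hairpin the median was 0.13 (H2), 0.015 (H3) and -0.026 (H4), and H2 was the highest array for 64.7% of them. The list includes FAU, which encodes a small subunit protein under a symbol outside the naming rule. Its mean of 0.011 ± 0.13 is the list median. EIF3E, a subunit of the initiation factor that prepares the small subunit, read 3144, 2433 and 2779 with H2, H3 and H4, against 2182 on the scrambled array (0.34 ± 0.19), and EIF3H of the same complex read 4853, 4839 and 4880, against 4399 (0.14 ± 0.0061). In this list NAP1L1, a histone chaperone, was lower with all 3 (-0.15 ± 0.087). In the initiation factors, 23 tested, H2 gave a median of 0.13, H3 of 0.041 and H4 of -0.00095, and H2 was highest for 69.6%. Their mean differences had a median of 0.038, with 9 higher, such as EIF2B5 (0.15 ± 0.0088), and 3 lower, such as EIF2S2 (-0.14 ± 0.097).

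Ribosome assembly factors, 38 tested, had a median of 0.082, with 13 higher and 2 lower with all 3 hairpins (16.9% and 30.6% of all genes). H2 gave a median of 0.22, H3 of 0.027 and H4 of 0.023, and H2 was highest for 78.9%. BCCIP, a chaperone of RPL23, read 1563, 1555 and 1478 with H2, H3 and H4, against 1250 on the scrambled array (0.29 ± 0.045). NOB1, which makes the last cut of the small subunit rRNA, and its partner PNO1 differed by 0.25 ± 0.21 and 0.23 ± 0.12. RRP1B had -1.33 with H2 but -0.046 with H3 and -0.18 with H4. The machinery of RNA polymerase I, which makes the large rRNA precursor, had a median of 0.042 over 12 genes, with 3 higher and 2 lower. POLR1D differed by -0.17 ± 0.036 and the termination factor TTF1 by 0.16 ± 0.050. Among 14 regulators and sensors of ribosomal proteins the median was -0.054, with 4 higher and 5 lower. Besides MDM2, RPS6KB2, an S6 kinase, differed by -0.14, -0.19 and -0.80 with H2, H3 and H4, and EIF4EBP1, an mTOR-controlled inhibitor of initiation, by 0.44, 0.15 and 0.14. CDKN1A, next by size in this list, was lower with all 3 (-0.54, -0.056 and -0.0024). Activity of p53 was not tested.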

How the data were processed

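Total RNA, 250 ng per sample, was labelled with biotin and hybridised to 1 array per sample. The deposited table gives 1 intensity per probe set, summarised and normalized with RMA by the authors, per the submitters' processing notes. Neither its version nor the genome build is given in the sources used here. The deposited intensity is on a linear scale, so log2 of it was taken where the planned test had assumed log2 values. Since RMA equalises the arrays' distributions, a shift in RNA content per cell would not be seen. Only probe sets with exactly 1 gene symbol were named (19460 of 33297), and the one with the highest mean was kept per gene. Genes below the 25th percentile of mean log2 intensity (6.78) were left out, which kept 13813.

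The 3 hairpin arrays, 1 genotype in the labels, were set against the scrambled array in limma 3.58.1 (R 4.3.3; lmFit, eBayes with an intensity trend, Benjamini-Hochberg adjustment over all genes tested, threshold 0.05, 2 residual degrees of freedom). Only the hairpins give a spread, and the scrambled array is assumed to vary as they do. Single hairpins have no test. SDs are over 3 hairpins and hold no error of the scrambled array. The fit was tested on simulated data, but only with changes larger than those of any member here. There too the scrambled array was given the spread of the hairpins. No scan date or detection call was used here, and the number of arrays limits the precision.

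Named genes are ZFX, per subunit the 5 highest and 5 lowest members on 1 side with all 3 hairpins and the 2 with the widest range, a fixed list of members with known roles, and 2 to 4 genes per further list. The members and lists were chosen with earlier results of these data known. Promoter windows came from RefSeq (GRCh38.p14). Figures were drawn with matplotlib 3.10.9.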

Additional observations from a re-analysis of the deposited data

How the results depend on the processing

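The count of genes past an adjusted p of 0.05 in limma was 0 in the 10 alternatives run (no filter, a filter at the 50th percentile, centring, quantile normalization, cyclic loess, mean of probe sets, no trend, and without each hairpin), with 446 genes at an unadjusted p under 0.05 in the main setting. Subunit medians stayed positive in all settings and moved by less than the SD between hairpins. That is a wide margin, since the SDs (0.062 large, 0.037 small) are near or above the main medians (0.064 and 0.016). All 64 members passed the filter, so leaving it out could not move the medians. The small subunit median ran from 0.0078 with quantile normalization to 0.048 with centring. Without 1 hairpin each, the medians ran from 0.047 to 0.096 (large) and from 0.014 to 0.035 (small). Canonical genes alone gave 0.062 and 0.021; this and the 2 other probe set choices (all, or the dimmest) were chosen after seeing the data. Relative to the median of all genes per hairpin, 29 large subunit genes were higher and 1 lower, and 13 small subunit genes were higher. Centring gave 29, 1 and 14. The small subunit count of lower genes was 1 with quantile normalization, 2 with cyclic loess and 1 with the mean of probe sets. Without 1 hairpin each, 21 to 24 large subunit genes were higher and 5 to 8 lower, and 9 to 11 small subunit genes were higher and 0 to 4 lower, since fewer arrays had to agree in sign. At 1.1-fold instead of 1.2-fold the counts above scrambled were 22 large and 5 small with H2, 7 and 1 with H3, and 5 and 1 with H4, and those below were 0 and 2, 2 and 2, and 0 and 1. At 1.5-fold all were 0. Of 320 values of 36 named members, 306 moved by less than 1 SD. Many of these could not have moved further, so the count does not measure stability. Leaving out 1 hairpin shifts a mean by less than 1 SD of the same 3 hairpins, and the filters change no gene's value. In some setting 11 members changed sign. The cause was not tested. No paired analysis was possible because there was only 1 scrambled array and no label ties it to a single hairpin array.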
